A study of Mus musculus with 8 samples.

Results

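The homeostatic and lymphoid chemokines are the ligands that place leukocytes in resting and lymphoid tissue, together with the membrane-bound ligands Cxcl16 and Cx3cl1. They were taken as the 10 genes named Ccl17, Ccl19, Ccl20, Ccl21a, Ccl22, Cxcl12, Cxcl13, Cxcl14, Cxcl16 and Cx3cl1, and all 10 were found by symbol among the 750 endogenous genes of a NanoString nCounter mouse immune panel, an assay that counts color-coded probe pairs bound to each transcript. Peritoneal tumors of MC38, a murine colon cancer cell line, were grown from cells implanted intraperitoneally in wild-type male C57BL/6 mice of 7 to 8 weeks, and RNA was taken from whole tumor nodules. From day 7 the mice received intraperitoneal injections of the STING agonist RR-CDA (15 µg, 2 injections) or of the same volume of PBS, and tumors were collected 10 days after the first injection, with 4 tumors in each group. The comparison asked how the immune gene profile of the tumors differed with STING agonist treatment.

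Chemokines bind G protein-coupled receptors on leukocytes and direct their movement, and most of the genes described here act in fixed ligand and receptor pairs. Ccl19 and Ccl21 call dendritic cells and naive T cells through Ccr7, Cxcl13 calls B cells into follicles through Cxcr5, and Cxcl12 holds leukocytes and progenitors in place through Cxcr4. Cxcl16 and Cx3cl1 are made as membrane proteins that tether cells carrying Cxcr6 or Cx3cr1 and can be shed as soluble chemoattractants.

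Each tumor gave between 241506 and 414698 counts over the 750 genes. Values below are normalized counts, that is, counts divided by a factor proportional to the geometric mean over 20 housekeeping genes in that tumor. Background was taken as 8.62 counts, the average over tumors of the mean of the 8 negative control probes plus 2 of their SD. By tumor it ran from 8.27 to 11.3 counts with PBS and from 5.03 to 10.8 with STING agonist. PBS controls 2 and 4 differed by less than the sampling noise (chi-square 0.404 per degree of freedom over 358 genes, against 5.89 to 12.6 for the other pairs within a group) and were counted as 1 sample, so n = 3 against 4. Each set of values is listed as PBS control 1, the averaged PBS controls 2 and 4, and PBS control 3, then STING agonist tumors 1 to 4.

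A pair of samples stood apart from the rest. The averaged PBS controls 2 and 4 held 42.0 normalized counts of Ptprc, the pan-leukocyte phosphatase CD45, against 108 and 111 in the other PBS samples. STING agonist tumor 4 was the highest sample for 12 of the 12 hepatocyte markers on the panel. The sum of this list was 4154, 1166 and 2550 in the PBS samples and 3685, 2869, 3392 and 8118 in the treated ones. Apoe, the most abundant gene, was alone at 4096.5, 1103.7 and 2437.3 with PBS and at 3613.6, 2817.7, 3331.4 and 6443.6 with STING agonist. The sum is therefore mostly Apoe and is not read as a level of hepatocyte RNA. Ambp, a plasma protein precursor made by hepatocytes, was at 762 in tumor 4 and at 2.45 to 11.7 in every other sample (log2 fold change 4.88; edgeR adjusted p = 0.231). It was the 1 gene of the 12 higher at an unadjusted p under 0.05, beside 17.7% of the 750 genes, and 0 were lower. With positive controls as the scale 4 were higher beside 89 of 750 genes, without PBS controls 2 and 4 none was beside 90, and without tumor 4 none was higher beside 79 and 1 was lower beside 10. The median of the list was 1.82, or -0.25 without tumor 4, and Masp2 was not above background. The labels name the tissue as colon. Of 7 listed epithelial markers 4 were on the panel, and they summed to 34.2 to 81.4 normalized counts in each sample. These few markers do not test the tissue label. Cdh1 (E-cadherin) was the most abundant (log2 fold change -0.70; edgeR adjusted p = 0.332), and 0 of 4 were at an unadjusted p under 0.05. With TMM, DESeq2 size factors or the total count as the scale, or without PBS controls 2 and 4, 1 of the 4 was lower at that threshold, beside 17 to 45 of the 750 genes.

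Cxcl16, Cx3cl1 and Cxcl12 were higher in treated tumors at an unadjusted p under 0.05, which is 3 of 10 members beside 17.7% of the 750 genes, and no member was lower at that threshold beside 1.33% of genes. Cxcl13 was lower at that threshold in 14 of 24 alternatives, and the lower genes were 10 of 750 here, 40 with TMM and 45 with DESeq2 size factors. Cxcl13 had the lowest fitted change of the members and had every treated tumor below every PBS sample. No member reached an adjusted p under 0.05 in the quasi-likelihood test of edgeR, and neither did any other gene (0.0% of 750; lowest adjusted p = 0.171). At an unadjusted p under 0.05, 143 genes were found with edgeR, and at an adjusted p under 0.05 the Wald test of DESeq2 gave 52 genes, and limma and the methods' test 0 each. Of the members, Cxcl16 (adjusted p = 0.0373 with DESeq2, within 0.0373 to 0.408 over the alternatives) and Cx3cl1 (0.0284, within 0.0284 to 0.408) were among those 52. The median log2 fold change was 0.37 over the 10 members and 0.21 over all genes. These medians were 0.18 and -0.02 with TMM, 0.16 and -0.04 with DESeq2 size factors, and 0.18 and 0.01 with the total count. They were 0.39 and 0.23 with positive controls and 0.22 and 0.16 without PBS controls 2 and 4. The share of 3 in 10 was not tested against the panel.

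**Figure D1:**
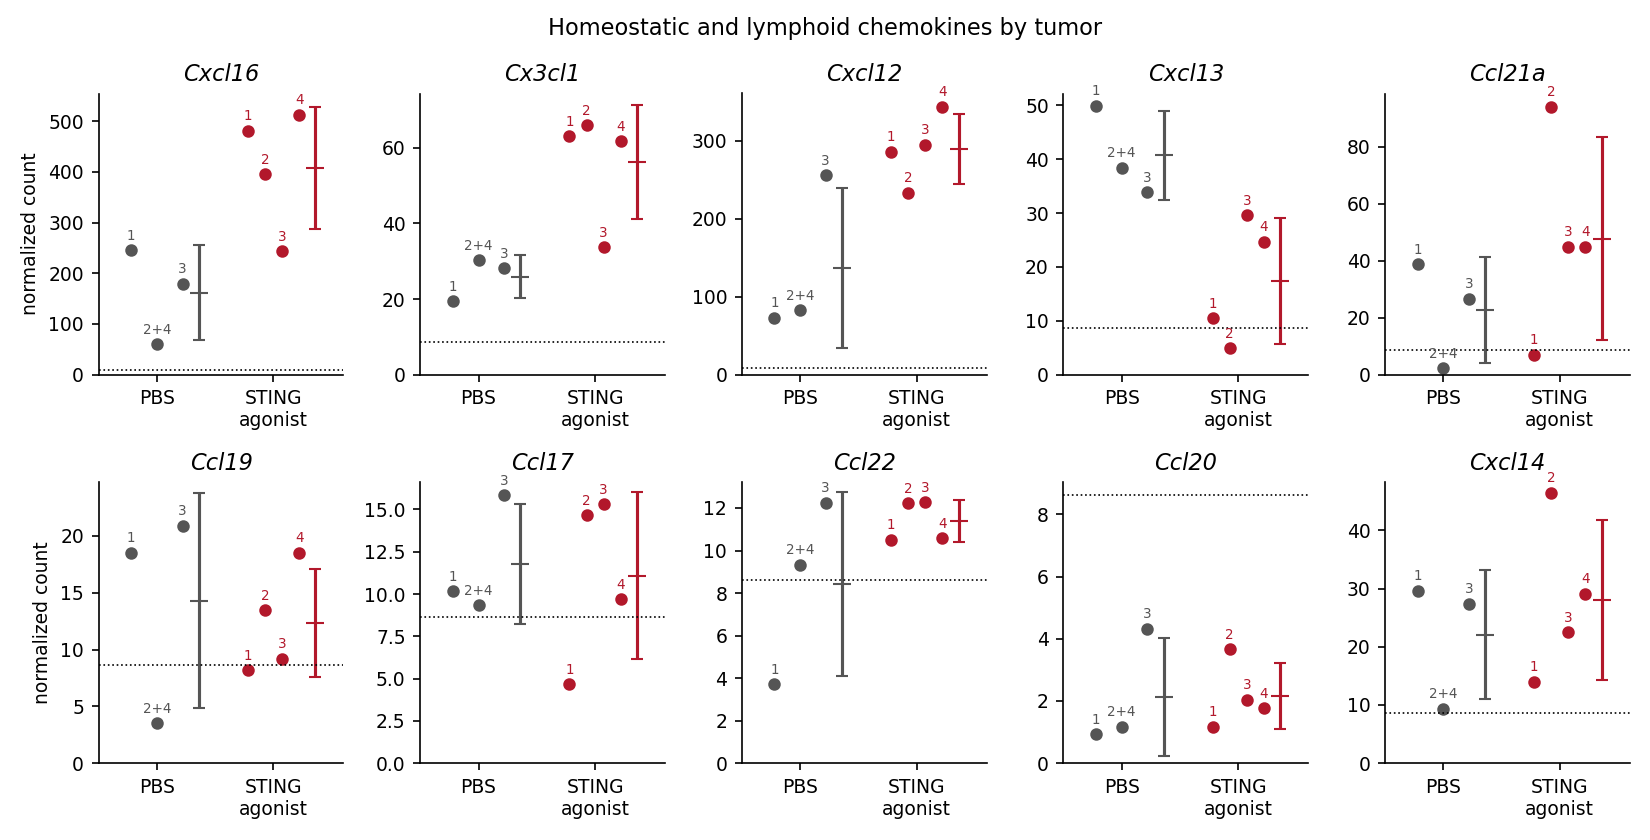
Normalized counts of the 10 chemokines in each sample (numbers are tumor numbers, 2+4 is the average of PBS controls 2 and 4), with the mean and SD of each group beside the points and the background of 8.62 counts as a dotted line. The treated tumors all lay above the PBS samples for Cx3cl1 and all below them for Cxcl13, and Ccl20 stayed below background.

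Cxcl16 is made by macrophages, dendritic cells and inflamed endothelium and is the only known chemokine ligand of Cxcr6. Its normalized counts were 245, 60.6 and 179 in the PBS samples and 481, 396, 243 and 513 in the treated tumors. STING agonist tumors 1, 2 and 4 lay above every PBS sample, whereas tumor 3 lay just under PBS control 1, so the groups overlapped at that point. The mean was 162 ± 93.5 (SD, n = 3) with PBS and 408 ± 121 (SD, n = 4) with STING agonist, a log2 fold change of 1.33 ± 0.44 (SE; edgeR adjusted p = 0.191). Cxcr6, carried by tissue-resident and activated T cells and by NK T cells, was at 19.4, 9.32 and 33.9 with PBS and at 100, 51.3, 37.8 and 79.4 with STING agonist. All 4 treated tumors exceeded all PBS samples in Cxcr6, with tumor 3 nearest to them, and the averaged controls were lowest in both the ligand and the receptor. The log2 fold change of Cxcr6 was 1.66 ± 0.50 (SE; edgeR adjusted p = 0.181), and it was the only one of 7 receptors on the panel at an unadjusted p under 0.05 on the housekeeping scale with all samples, beside 17.7% of all genes. Cxcr6 was also among the 52 genes at an adjusted p under 0.05 in the Wald test of DESeq2 (adjusted p = 0.0202, within 0.0202 to 0.408 over the alternatives).

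Ptprc was at 108, 42.0 and 111 in the PBS samples and at 257, 166, 140 and 267 in the treated tumors, with no overlap (log2 fold change 1.24 ± 0.38, SE; edgeR adjusted p = 0.181). Tumors 1 and 4 were the highest and tumor 3 the lowest of the treated samples, for Ptprc as for Cxcr6. T cell markers were higher at an unadjusted p under 0.05 in 4 of 12 genes beside 17.7% of all genes, and lower in 0 (median log2 fold change 0.67). That count was 1 of 12 without STING agonist tumor 4, without PBS controls 2 and 4, or with the total count as the scale, beside 79, 90 and 68 of the 750 genes, which is near the share of the panel. The list summed to 217, 140 and 234 with PBS and to 487, 253, 273 and 434 with STING agonist. The T cell receptor subunits Cd3g (1.51) and Cd3e (1.18) and the coreceptor chains Cd8a (1.26) and Cd8b1 (1.04) made up the count of 4 by log2 fold change. Cd3d was the most abundant gene of the list, and Cd4, Cd2, Cd5, Cd6 and Cd27 were not above background. In bulk tumors, more cells of a type and more RNA per cell cannot be told apart, and the part of T cell content in the higher Cxcl16 and Cxcr6 was not tested.

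Myeloid markers, which include the cell types known to make Cxcl16, differed in both directions. Dendritic cell markers were higher at an unadjusted p under 0.05 in 5 of 10 genes beside 17.7% of all genes, and lower in 0, with the integrin Itgax (log2 fold change 2.02), the costimulatory molecules Cd40 (0.96) and Cd86 (1.002) and the maturation marker Cd83 (1.53) as the genes with the lowest p. The count was 3 of 10 without STING agonist tumor 4, without PBS controls 2 and 4, and with DESeq2 size factors, the total count or positive controls as the scale, beside 68 to 90 of the 750 genes. They summed to 232, 212 and 304 with PBS and to 520, 329, 363 and 525 with STING agonist. Irf8 was the most abundant, and Xcr1 and Irf4 were not above background. Of 9 macrophage markers, Emr1 (F4/80) was higher (1.29), while the scavenger receptors Cd163 (-1.32) and Marco (-1.33) were lower, each at an unadjusted p under 0.05, beside 17.7% and 1.33% of all genes. With TMM, DESeq2 size factors or the total count, 2 of the 9 were again lower, beside 40, 45 and 31 of the 750 genes. With positive controls 2 were lower, beside 7 of the 750 genes. The macrophage markers summed to 1918, 1150 and 2839 with PBS and to 2769, 1900, 2361 and 2737 with STING agonist, led by Cd68, and the sums of the groups overlapped. The 3 genes whose values over the 7 samples were most like those of Cxcl16 were Tlr9, a receptor for endosomal DNA, Cybb, a subunit of the phagocyte oxidase, and Fcgr1, the high-affinity IgG receptor. Their root mean square differences from Cxcl16 were 0.186, 0.198 and 0.228 log2 units after centring, against a median of 0.893 over 516 genes. The part of these markers in the Cxcl16 result was not tested.

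Cx3cl1 (fractalkine) is made by endothelial and epithelial cells and binds Cx3cr1 on monocytes, macrophages and cytotoxic lymphocytes. It was at 19.4, 30.3 and 28.1 normalized counts with PBS and at 63.1, 66.0, 33.7 and 61.8 with STING agonist. All 4 treated tumors lay above all PBS samples, 3 of them close together and tumor 3 only slightly above the averaged controls. Genes with all treated tumors higher numbered 126, and 70 with TMM, 68 with DESeq2 size factors, 67 with the total count and 72 with positive controls. Cx3cl1 was the 1 member among the 126, beside 16.8% of the 750 genes, and its groups overlapped with TMM or DESeq2 size factors as the scale. The mean was 25.9 ± 5.75 (SD, n = 3) against 56.1 ± 15.05 (SD, n = 4), a log2 fold change of 1.11 ± 0.34 (SE; edgeR adjusted p = 0.181). Cx3cr1 was at 74.0, 12.8 and 25.2 with PBS and at 81.8, 108, 34.7 and 62.6 with STING agonist. Only treated tumors 1 and 2 exceeded PBS control 1, and the groups overlapped (0.93 ± 0.59, SE; edgeR adjusted p = 0.425). Without PBS control 1, the log2 fold change of Cx3cr1 was 1.88 (edgeR adjusted p = 0.342), with an unadjusted p under 0.05 there and, of the other alternatives, with the replicate block alone. Without PBS controls 2 and 4 it was 0.53 (edgeR adjusted p = 0.680).

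Integrins that bind the chemokine domain of Cx3cl1 were measured by 3 genes. Itga4 (log2 fold change 1.04) was higher at an unadjusted p under 0.05, beside 17.7% of all genes, and the other two were not (median 0.03). With DESeq2 size factors, the total count or positive controls, without STING agonist tumor 4, or without PBS controls 2 and 4, none of the 3 was, beside 68 to 90 of the 750 genes. The list summed to 3137, 3036 and 3870 with PBS and to 3389, 3254, 3625 and 3470 with STING agonist, most of it from Itgb1. Endothelial markers were higher at an unadjusted p under 0.05 in 2 of 8 genes beside 17.7% of all genes, and lower in 0 (median 0.34), namely the VEGF receptor Kdr (1.05) and the coreceptor Eng (0.45). With TMM or DESeq2 size factors 1 was higher and 1 lower, without PBS controls 2 and 4 the counts were 3 and 1, and with the total count, with positive controls or without STING agonist tumor 4 they were 1 and 0. Over these 6 settings 68 to 90 of the 750 genes were higher and 7 to 45 lower. Their sum was 492, 606 and 674 with PBS and 686, 713, 789 and 672 with STING agonist, with Pecam1 as the most abundant gene and all 8 above background. The genes most like Cx3cl1 were the early activation marker Cd69, the chemerin-binding receptor Ccrl2 and the nucleic acid sensor Zbp1, at differences of 0.208, 0.236 and 0.262 log2 units against a median of 0.613. The part of endothelial content in the Cx3cl1 result was not tested.

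Cxcl12 is made by stromal and endothelial cells. Its normalized counts were 73.1, 82.8 and 256 with PBS and 286, 233, 295 and 344 with STING agonist. The treated tumors were close to each other, whereas PBS control 3 lay far above the other PBS samples and above treated tumor 2. The mean was 137 ± 103 (SD, n = 3) against 290 ± 45.3 (SD, n = 4), a log2 fold change of 1.07 ± 0.42 (SE; edgeR adjusted p = 0.227). Without PBS control 3 the log2 fold change of Cxcl12 was 1.90 and passed (edgeR adjusted p = 0.0382, within 0.0382 to 0.433 over all alternatives). Its receptor Cxcr4 was at 47.2, 65.3 and 45.4 with PBS and at 89.9, 46.5, 56.2 and 56.5 with STING agonist. Tumor 1 alone exceeded every PBS sample in Cxcr4, and the estimate of 0.25 ± 0.30 (SE; edgeR adjusted p = 0.734) covered -0.36 to 0.86 at 2 SE and was 0.018 without STING agonist tumor 1. Of 8 fibroblast and stroma markers, the collagen gene Col1a1 was higher (0.73) and Col3a1 lower (-0.42) at an unadjusted p under 0.05, beside 17.7% and 1.33% of all genes, with a median of 0.00. None of the 8 was higher at that threshold with TMM, DESeq2 size factors, the total count or positive controls, without STING agonist tumor 4, or without PBS controls 2 and 4, and the lower genes numbered 2, 2, 3, 0, 1 and 1 in that order, beside 40, 45, 31, 7, 10 and 17 of the 750 genes (68 to 90 higher). They summed to 15530, 14960 and 14570 with PBS and to 13880, 13790, 11590 and 14530 with STING agonist, Col3a1 being the most abundant and all 8 above background. The part of stromal content in the Cxcl12 result was not tested.

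**Figure D2:**
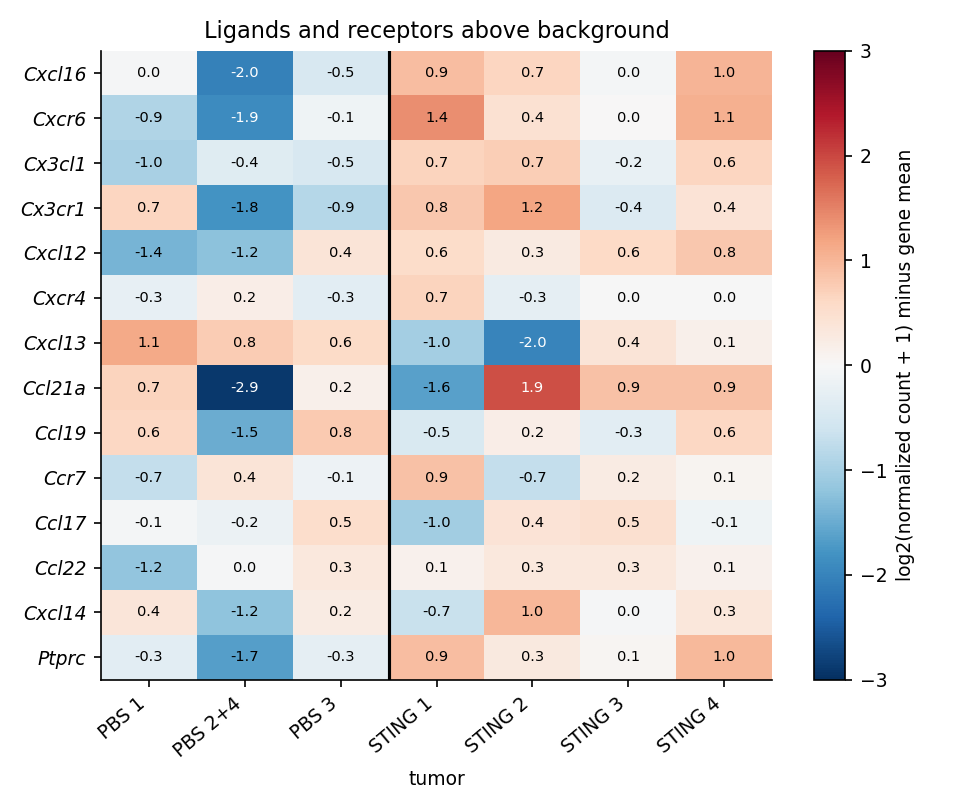
Ligands and receptors with a mean count above background in the 7 samples, as log2(normalized count + 1) minus the mean of each gene, with each ligand above its receptor where both were measurable (Cxcr5, the receptor of Cxcl13, and Ccr4, that of Ccl17 and Ccl22, were not). Cxcl16 and Cxcr6 were lowest in the averaged PBS controls 2 and 4, as was Ptprc, while Ccl21a was low in those controls and in STING agonist tumor 1.

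Cxcl13 is made by follicular dendritic cells, follicular stroma and peritoneal macrophages, and it is the ligand of Cxcr5 on B cells and follicular helper T cells. It was at 49.96, 38.5 and 33.9 normalized counts with PBS and at 10.5, 4.89, 29.6 and 24.7 with STING agonist. All 4 treated tumors lay below all PBS samples, tumor 2 below background and tumors 3 and 4 not far under PBS control 3. Genes with all treated tumors lower numbered 11, and 48 with TMM, 52 with DESeq2 size factors and 37 with the total count. They numbered 8 with positive controls and 31 without PBS control 1. Cxcl13 was the 1 member among them in each of these settings, beside 1.47% of the 750 genes in the main one. The mean was 40.8 ± 8.29 (SD, n = 3) against 17.4 ± 11.6 (SD, n = 4), a log2 fold change of -1.20 ± 0.53 (SE; edgeR adjusted p = 0.256). The unadjusted p of Cxcl13 was above 0.05 here and under 0.05 in 14 of 24 alternatives, among them TMM. Cxcr5 was not above background as a mean, at 1.17 to 7.15 normalized counts over all samples, so no fold change is given.

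Of 11 B cell markers, Blnk, an adaptor of B cell receptor signaling that myeloid cells also carry, was higher (0.95) at an unadjusted p under 0.05, beside 17.7% of all genes, and 0 were lower (median 0.34). The list summed to 186, 157 and 241 with PBS and to 275, 182, 263 and 308 with STING agonist, with Cd37 as the most abundant gene. Among the defining markers, Ms4a1, Cd79a, Blk, Pax5 and Cr2 were not above background. Mesothelial content was measured by Msln alone, at 94.4 to 237 with PBS and at 91.7 to 138 with STING agonist (-0.45; edgeR adjusted p = 0.460). The log2 fold change of Msln was -0.73 with TMM, -0.74 with DESeq2 size factors and -0.62 with the total count, each at an unadjusted p under 0.05, but -0.37 with positive controls and -0.058 without PBS controls 2 and 4, which held its highest value, both with an unadjusted p above 0.05. The genes most like Cxcl13 were Ctsg, a protease of neutrophils and mast cells, Cdh1 and Prf1 (perforin), at 0.455, 0.631 and 0.642 log2 units against a median of 1.15. Ctsg is not on the neutrophil list and was named for its likeness to Cxcl13 over these same samples. Its log2 fold change was -1.20 (edgeR adjusted p = 0.217), with an unadjusted p under 0.05, and its groups did not overlap. That direction and separation follow in part from the choice by likeness, so nothing is read from them. Neutrophil markers were neither higher nor lower at an unadjusted p under 0.05 in any of 7 genes (median 0.15), beside 17.7% and 1.33% of all genes. The lowest p of these was that of the growth factor receptor Csf3r (0.82; edgeR adjusted p = 0.474). Their sum ran from 315 to 681 over the samples, led by S100a8, and Mpo, Elane and Ltf were not above background. Of the 9 macrophage markers given above, 1 was higher and 2, Cd163 and Marco, were lower at that threshold. The part of macrophage content in the Cxcl13 result was not tested.

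Ccl21a, a T zone and lymphatic chemokine, had the widest fold range of the members over the samples. Its normalized counts were 38.9, 2.33 and 26.7 with PBS and 7.01, 94.1, 45.0 and 45.0 with STING agonist. Treated tumors 2, 3 and 4 lay above every PBS sample, while treated tumor 1 and the averaged controls were both below background. The mean was 22.6 ± 18.6 (SD, n = 3) against 47.8 ± 35.7 (SD, n = 4), a log2 fold change of 1.05 ± 0.87 (SE; edgeR adjusted p = 0.554), and the spread within groups was as large as the difference. It was 0.50 without STING agonist tumor 2, 0.54 without PBS controls 2 and 4 and 1.65 without PBS control 1. Ccl21a has 3 other named copies (Ccl21b, Ccl21c and Ccl21d) in the RefSeq gene table, and a probe may not separate them, so the value is uncertain as to its copy. Ccl19, the other Ccr7 ligand, was at 18.5, 3.50 and 20.9 with PBS and at 8.18, 13.4, 9.20 and 18.5 with STING agonist. The averaged controls were again the lowest sample and treated tumor 1 the lowest of its group, and all 4 treated tumors lay within the range of the PBS samples (-0.23 ± 0.55, SE; edgeR adjusted p = 0.879). Ccl19 exceeded the background of its own tumor in 5 of 8 tumors, with PBS controls 2 and 4 and STING agonist tumor 3 below theirs, and its estimate turned to 0.14 without PBS control 3. The value of Ccl19 is likewise uncertain, since the table lists 3 pseudogenes of it.

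Ccr7 was at 14.8, 32.6 and 22.3 with PBS and at 46.7, 14.7, 29.6 and 26.5 with STING agonist. It was highest in treated tumor 1, where Ccl21a and Ccl19 were lowest in that group, and the groups overlapped (0.34 ± 0.45, SE; edgeR adjusted p = 0.748). The estimate was 0.037 without STING agonist tumor 1, 0.10 without PBS control 1, 0.56 without STING agonist tumor 2 and 0.65 without PBS controls 2 and 4. Genes of lymphoid tissue signaling were higher at an unadjusted p under 0.05 in 3 of 19, a share near the 17.7% of all genes, and lower in 0 (median 0.22). These were the lymphotoxin subunit Ltb (1.24), the interleukin-7 receptor Il7r (1.46) and the adhesion molecule Icam1 (0.91). The count was 0 without STING agonist tumor 4 or without PBS controls 2 and 4, and 1 with the total count, beside 79, 90 and 68 of the 750 genes. The list summed to 4072, 3034 and 4570 with PBS and to 4756, 5079, 4155 and 4801 with STING agonist, led by Vcam1, and Il21 was not above background. The part of these signals in the levels of Ccl19 and Ccl21a was not tested.

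Ccl17 and Ccl22, both ligands of Ccr4 made by dendritic cells and macrophages, were near background. Ccl17 ran from 9.32 to 15.9 normalized counts with PBS and from 4.67 to 15.3 with STING agonist (-0.11 ± 0.44, SE; edgeR adjusted p = 0.926). Ccl22 ran from 3.70 to 12.2 and from 10.5 to 12.3 (0.41 ± 0.41, SE; edgeR adjusted p = 0.641), and its 4 treated values were closer together than its 3 PBS values. The estimate of Ccl22 was 0.062 without PBS control 1 and 0.83 without PBS control 3, and that of Ccl17 turned to 0.18 without PBS control 3 and 0.14 without STING agonist tumor 1. Both were above the background of their own tumor in 5 of the 8 tumors. For Ccl22 these were every treated tumor and PBS control 3, so detection was uneven between the groups. Ccr4 stayed at 2.33 to 10.2 normalized counts and was not above background as a mean. Ccl20, the ligand of Ccr6 at epithelial surfaces, had a mean of 2.12 counts and exceeded background in 0 of 8 tumors, and Ccr6 also had a mean below background, at 5.75 counts. A difference in Ccl20, Ccr4, Ccr6 or Cxcr5 was not detectable at this depth.

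Cxcl14, a chemokine of epithelia and stroma, was at 29.6, 9.32 and 27.4 with PBS and at 14.0, 46.5, 22.5 and 29.1 with STING agonist. As with Ccl21a, treated tumor 2 was the highest sample and the averaged controls the lowest, with treated tumor 1 next to them, and the groups overlapped (0.32 ± 0.51, SE; edgeR adjusted p = 0.813). It was above the background of its own tumor in 6 of 8 tumors, and its estimate was -0.023 without STING agonist tumor 2 and -0.026 without PBS controls 2 and 4. The 25 other chemokine ligands of the panel were higher at an unadjusted p under 0.05 in 9 genes and lower in 1, beside 17.7% and 1.33% of all genes, with a median log2 fold change of 0.48. With TMM 6 of the 25 were higher beside 87 of 750 genes, and with DESeq2 size factors 5 beside 81. With the total count, with positive controls, without STING agonist tumor 4 and without PBS controls 2 and 4, 8 were higher, beside 68, 89, 79 and 90. The pair with the lowest p, the Cxcr3 ligands Cxcl9 (2.25 ± 0.44, SE) and Cxcl11 (1.46 ± 0.39, SE), both had an adjusted p of 0.171 in edgeR and did not overlap between groups.

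**Figure D3:**
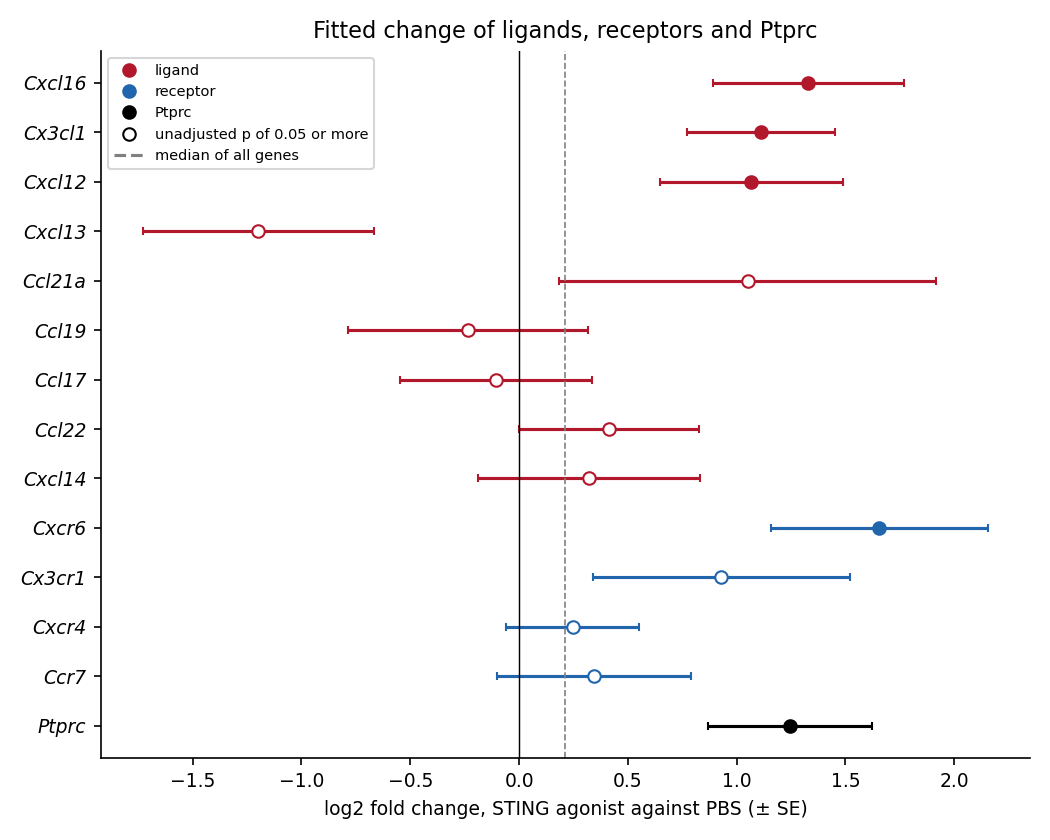
Log2 fold change of STING agonist against PBS with its SE for the chemokines (red), receptors (blue) and Ptprc (black) with a mean count above background, filled where the unadjusted p of edgeR was under 0.05. Cxcl16, Cx3cl1, Cxcl12, Cxcr6 and Ptprc were filled and to the right of the dashed median of all genes at 0.21, and Cxcl13 was the one gene far to its left.

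Each ligand was also set against Ptprc within the same tumor. The log2 ratio of Cxcl16 to Ptprc was 0.79 ± 0.34 (SD, n = 3) with PBS and 0.97 ± 0.20 (SD, n = 4) with STING agonist, a difference of 0.18 (two-sided exact permutation p = 0.371), within 0.039 without PBS controls 2 and 4 to 0.37 without PBS control 1. For Cx3cl1 the difference was -0.26 (exact p = 0.714), 0.32 without PBS controls 2 and 4 and -0.66 without PBS control 1. For Cxcl12 it was -0.01 (exact p = 0.971), 0.20 without those controls and -0.56 to 0.32 with each tumor left out in turn, so the sign of both turned. The 3 ligands with the higher normalized counts differed by less than the spread between samples once set against this leukocyte gene. A p that misses the threshold does not show that the ratios were equal.

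Cxcl13 relative to Ptprc was at -1.10, -0.12 and -1.68 on the log2 scale with PBS and at -4.49, -4.83, -2.20 and -3.38 with STING agonist. All 4 treated tumors lay below all PBS samples, with a difference of -2.76 (exact p = 0.0571). Ccl19 was at -2.49, -3.26 and -2.35 with PBS and at -4.81, -3.53, -3.79 and -3.78 with STING agonist. The difference of -1.28 was at the smallest p that the 35 arrangements can give (exact p = 0.0286, not adjusted for the 9 members tested), but it rests in part on the 3 tumors where Ccl19 was not above background, so nothing is read from the separation of its groups. With the background subtracted, the difference of Ccl19 was -1.36 and did not pass (exact p = 0.143). The remaining differences were -1.48 for Ccl17, -0.96 for Cxcl14, -0.80 for Ccl22 and -0.11 for Ccl21a (exact p from 0.143 to 0.914), that of Ccl21a running from -0.67 to 0.73 with each tumor left out. That of Ccl22 was -1.45 without PBS control 1 and -0.21 without PBS controls 2 and 4, and that of Cxcl14 was -0.56 without STING agonist tumor 1. Ccl17, Ccl22 and Ccl21a were likewise above background in 5 of 8 tumors and Cxcl14 in 6, so no exact size is read from these differences. Since Ptprc itself was higher in treated tumors, a ratio shows unequal change and not that either transcript was unchanged. The log2 fold change was 1.24 for Ptprc and 0.21 at the median of all genes. A gene at that median would therefore also be lower relative to Ptprc. Ratios were taken for the 9 members only, so no share of all genes is given, and a lower ratio is not read as particular to a member.

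**Figure D4:**
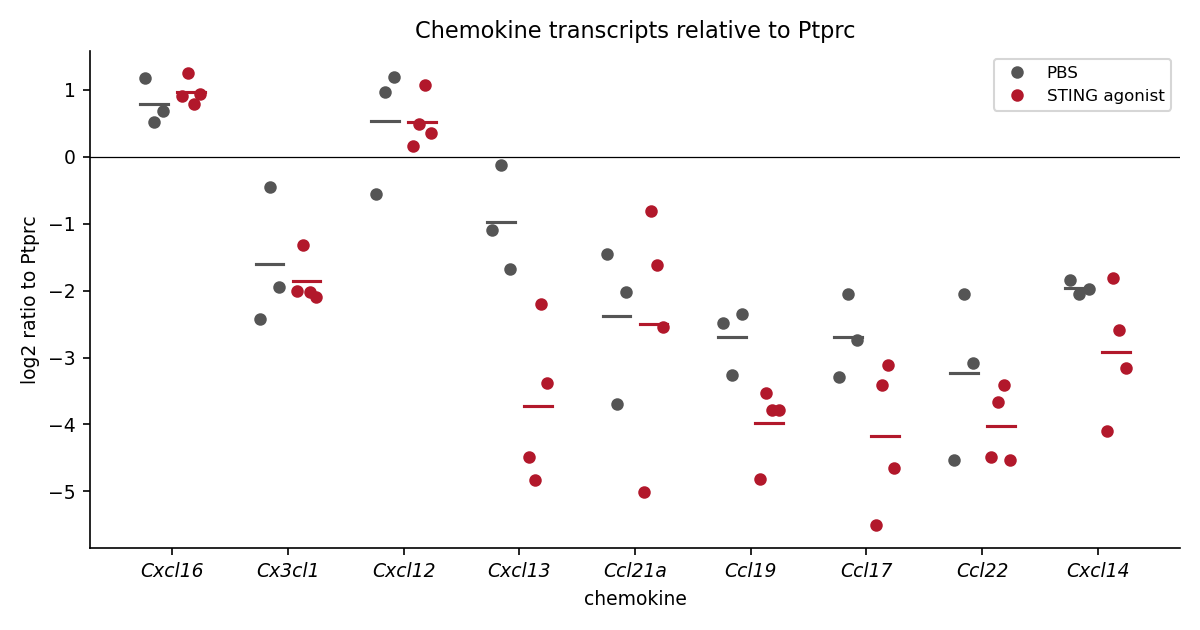
Log2 ratio of each chemokine to Ptprc, from normalized counts plus 1, in each sample with the group means as bars. The groups were apart for Cxcl13 and for Ccl19, which was not above background in 3 of the 8 tumors, and overlapped for the other 7 members. Ratios were taken for the members only, so no share of all genes is given. Heights of different genes are not comparable because probes differ in efficiency.

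Promoters are shown for Cx3cl1 and Cxcl12, which were both higher at an unadjusted p under 0.05, for Cxcl13, whose estimate had the opposite sign and did not pass, and for Cxcl14, which held most matches. Sequences from 250 bases before to 50 after the start were given by RefSeq (GRCm38.p6) for 9 of the 10 members, Cxcl16 being the exception. They were searched on both strands for an interferon-response core (ISRE, GAAANNGAA), a STAT-binding core (GAS, TTCNNNGAA) and a kappa B form (GGANTTTCC). The first pair can overlap in part. These letters occurred in 8.56%, 8.3% and 1.25% of the 32851 promoters of the same length. Capitals mark matches. Positions are chr8:94771930-94772229 (plus strand) for Cx3cl1, chr6:117168285-117168584 (plus) for Cxcl12, chr5:95956689-95956988 (plus) for Cxcl13 and chr13:56296502-56296801 (minus) for Cxcl14.
Cx3cl1: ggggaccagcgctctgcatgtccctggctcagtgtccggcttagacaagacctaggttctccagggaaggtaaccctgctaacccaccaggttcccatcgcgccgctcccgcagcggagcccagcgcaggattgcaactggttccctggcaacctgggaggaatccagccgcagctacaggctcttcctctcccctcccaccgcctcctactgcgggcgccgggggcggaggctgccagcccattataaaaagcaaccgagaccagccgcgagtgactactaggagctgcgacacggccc
Cxcl12: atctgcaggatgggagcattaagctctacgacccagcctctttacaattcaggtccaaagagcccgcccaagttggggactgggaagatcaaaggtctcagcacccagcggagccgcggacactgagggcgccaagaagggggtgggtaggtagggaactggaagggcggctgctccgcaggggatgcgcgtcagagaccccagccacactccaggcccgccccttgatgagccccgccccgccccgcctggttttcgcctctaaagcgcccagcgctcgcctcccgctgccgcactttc
Cxcl13: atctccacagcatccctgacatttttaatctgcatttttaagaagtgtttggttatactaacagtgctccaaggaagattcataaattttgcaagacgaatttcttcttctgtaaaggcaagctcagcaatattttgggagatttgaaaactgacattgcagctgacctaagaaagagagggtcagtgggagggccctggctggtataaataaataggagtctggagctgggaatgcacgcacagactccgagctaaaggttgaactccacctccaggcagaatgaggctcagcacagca
Cxcl14: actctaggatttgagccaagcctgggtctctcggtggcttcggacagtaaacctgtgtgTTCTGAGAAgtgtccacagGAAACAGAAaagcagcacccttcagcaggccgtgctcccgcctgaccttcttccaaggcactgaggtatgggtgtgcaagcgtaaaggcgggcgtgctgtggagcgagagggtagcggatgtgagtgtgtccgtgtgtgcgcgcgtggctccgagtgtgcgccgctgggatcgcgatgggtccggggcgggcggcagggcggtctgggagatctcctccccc
Cx3cl1, Cxcl12 and Cxcl13 held no match in this window. Cxcl14 held an ISRE core and a GAS core at -172 and -191 from the start. Among the other members, Ccl19 had an ISRE core at -208 and Ccl17 a GAS core at -99, and Ccl20, Ccl21a and Ccl22 had none. A match is a description of letters and not of binding.

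The scale set by housekeeping genes placed the median of all genes at 0.21, and TMM normalization moved it to -0.02. The genes at an unadjusted p under 0.05 were 133 higher and 10 lower (93.0% higher) on the housekeeping scale, 87 and 40 (68.5%) with TMM, 81 and 45 (64.3%) with size factors of DESeq2, and 68 and 31 (68.7%) with the total count. With positive controls they were 89 and 7 (92.7%), with a median of 0.23. With TMM the log2 fold change was 1.10 for Cxcl16, 0.87 for Cx3cl1, 0.90 for Cxcl12 and 1.45 for Cxcr6, and that of Cxcl13 was -1.47, then at an unadjusted p under 0.05 in edgeR. These 5 genes and Ptprc kept their direction under every scaling tried, whereas Cxcr4 turned with TMM (-0.04) and with DESeq2 size factors (-0.05). A scaling shifts all genes of a tumor alike, so the sign of a list median depends on where it started. Medians of the T cell, dendritic cell, macrophage, endothelial and B cell lists stayed above 0 under each scaling. With DESeq2 size factors, where the median of all genes was -0.04, the macrophage, endothelial and B cell medians were only 0.04, 0.06 and 0.07. Those of fibroblast and stroma (-0.25 with TMM), the integrins (-0.21) and neutrophils (-0.16) were below 0 with TMM, DESeq2 size factors and the total count, and with DESeq2 size factors those of the receptors and of lymphoid signaling were both -0.01.

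Without STING agonist tumor 4, which carried the hepatocyte transcripts, the log2 fold change was 1.20 for Cxcl16, 1.06 for Cx3cl1, 1.55 for Cxcr6 and -1.40 for Cxcl13, each at an unadjusted p under 0.05 in edgeR. Cxcl12 was then at 0.97, with an unadjusted p above 0.05. With PBS controls 2 and 4 both left out, Cxcl16 was at 0.95, Cx3cl1 at 1.23 and Cxcr6 at 1.32, each again at an unadjusted p under 0.05, while Cxcl12 at 0.81 and Cxcl13 at -1.24 were not. Over all 24 alternatives, Cxcl16, Cx3cl1 and Cxcr6 had an unadjusted p under 0.05 in 24, Cxcl12 in 17 and Cxcl13 in 14. The study describes its tumors as pooled from separate experiments, and the experiment of each tumor was not given in the sources used here, so its part was not tested.

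**Figure D5:**
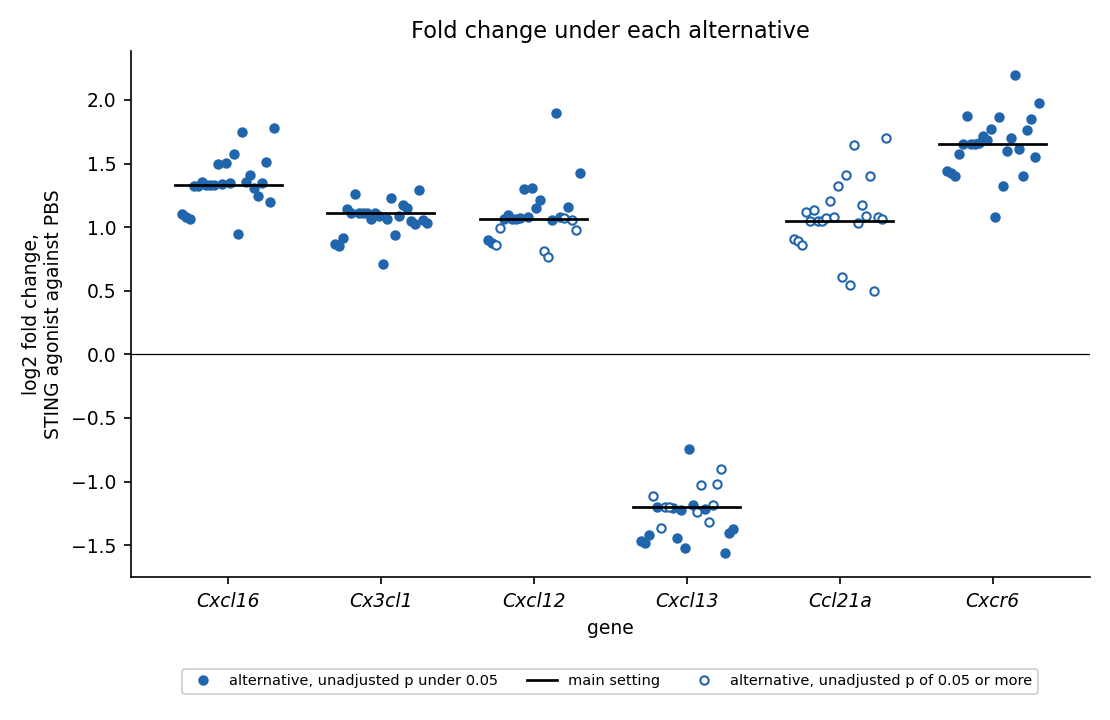
Log2 fold change of STING agonist against PBS for 6 genes under each alternative (points, filled where the unadjusted p was under 0.05) and in the main setting (bars). Cxcl16 stayed within 0.95 to 1.78 and Cx3cl1 within 0.71 to 1.29, while Cxcl12 and Cxcl13 crossed the threshold in some alternatives and Ccl21a in none.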

How the data were processed

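The authors extracted RNA from whole tumors with TRIzol and measured it on the nCounter PanCancer Immune Profiling mouse panel. They deposited whole-number counts of 784 probes per tumor (750 genes, 20 housekeeping, 8 negative and 6 positive controls), not scaled or background-subtracted, so housekeeping scaling was repeated here. Precision is limited by depth for genes near background. PBS controls 2 and 4 were averaged (rounded mean). Groups were compared over all 750 genes, without a filter or covariate, with edgeR 4.0.16 under R 4.3.3 (quasi-likelihood test, Benjamini-Hochberg adjustment). The outcome of its trial on simulated data is not given here, so nothing is drawn from it. Ratios to Ptprc used a pseudocount of 1 and exact two-sided permutation in Python 3.11.15, without adjustment over the members. Alternatives were other scalings, filters at a mean of 20 counts or at background, background subtraction, DESeq2 1.42.0, limma 3.58.1 (pseudocounts 0.1, 1 and 20), the methods' test on linear values, other handling of PBS controls 2 and 4, each tumor left out and a replicate block.

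Named were all members, receptors and Ptprc, and of each other list (lymphoid signaling, integrin partners of Cx3cl1 and cell type markers) up to 4 genes at an unadjusted p under 0.05, or the gene with the lowest p. Further named were the 3 genes closest to each of the 3 members with the largest log2 fold change among those with a mean of at least 20 counts, and the 2 other chemokine ligands with the lowest p. Most abundant genes and markers not above background were named after their values were seen. Members and lists were chosen with earlier results of these data known. All 10 members matched their symbol in the RefSeq gene table (GRCm38.p6) by transcript. Single values of 1 marker gene are not reported here.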

Additional observations from a re-analysis of the deposited data

Results flagged for a closer look

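Among 52 named genes, 3 had a treated tumor far from the other 3 of its group, and chance would give about 1 in 20 groups, or 2.6. For Cx3cl1, STING agonist tumor 3 was the lowest at 33.7 normalized counts against 61.8 to 66.0 (gap over range 0.868). For Cxcr5, tumor 3 was the highest at 7.15 against 1.17 to 1.76 (0.900), all below background. For Ambp, tumor 4 was the highest at 762 against 2.45 to 11.7 (0.988). PBS samples, being 3 after averaging, were not tested in this way.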

How the results depend on the processing

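Over 24 alternatives, 2 to 4 members had an unadjusted p under 0.05 (3 in the main setting), and 84 to 201 of all genes did (143). At an adjusted p under 0.05, the DESeq2 Wald test gave 52 genes, 2 of them members (Cxcl16 and Cx3cl1), where edgeR gave 0. Leaving out each tumor in turn gave 0 to 7 genes and 0 to 1 members at an adjusted p under 0.05 (7 without STING agonist tumor 3, and 1, Cxcl12, without PBS control 3), and 84 to 160 genes at an unadjusted one (84 without STING agonist tumor 1 and 89 without tumor 4). Genes higher in all treated tumors numbered 126, and 70 with TMM, 68 with DESeq2 size factors, 67 with the total count and 72 with positive controls. With each tumor left out they were 122 to 235 (235 without PBS control 3). Genes lower in all treated tumors numbered 11, and 48 with TMM, 52 with DESeq2 size factors, 37 with the total count and 27 without PBS controls 2 and 4. With each tumor left out they were 9 to 31. These counts were 31 without PBS control 1, 25 without STING agonist tumor 3, 19 without tumor 4 and 18 without PBS control 3. Cxcl13 was among them in all 16 alternatives, whereas Cx3cl1 overlapped with TMM and with DESeq2 size factors. Members with an exact p under 0.05 relative to Ptprc numbered 1, and 0 with background subtracted or 2 (Ccl19 and Cxcl13) with all 8 tumors separate. The share of all genes was not computed for this ratio, so nothing is read from these counts. With fewer than 7 samples that test cannot reach 0.05 and was not counted. The causes were not tested.

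Directions turned for members whose groups overlapped. The log2 fold change of Ccl19 was 0.036 with limma, 0.076 with limma at a pseudocount of 0.1 and 0.040 with all 8 tumors separate, and -0.53 to 0.14 with a tumor left out. That of Ccl17 was -0.30 to 0.18 with a tumor left out, and that of Cxcl14 was -0.026 without PBS controls 2 and 4 and -0.023 (without STING agonist tumor 2) to 0.57 with a tumor left out. Cxcr4 turned to -0.040 with TMM and -0.052 with DESeq2 size factors. Relative to Ptprc, Ccl21a was at 0.35 with all 8 tumors separate, Cxcl12 at 0.20 and Cx3cl1 at 0.32 without PBS controls 2 and 4, and Cxcl12 at 0.030 with a pseudocount of 20. With each tumor left out, Ccl21a ran from -0.67 to 0.73 and Cxcl12 from -0.56 to 0.32.

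Replicate numbers come from the sample titles. Deviations of tumors with the same number correlated at -0.06, -0.08, -0.28 and -0.13 over 517 genes. The highest correlation with another number was 0.211, 0.263, 0.244 and 0.269, so no pairing by number was seen. These values cannot decide whether tumors shared an experiment, since PBS controls 2 and 4 were nearly alike and the experiment of each tumor was not given. With the number as a replicate block and all 8 tumors separate, the unadjusted p was under 0.05 for 172 genes and 4 members, and the adjusted p for 0. Ccl19 was at 0.24 under that block.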
